A study of Mus musculus with 20 samples.

Results

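Collagens are secreted or membrane-bound proteins built from 3 chains wound into a triple helix. The 43 genes described here are the protein-coding mouse genes whose symbol has the form Col, a type number, a and a chain number, out of 22380 annotated protein-coding genes. They encode 11 fibrillar chains, 6 chains of the basement membrane network (type IV), 9 fibril-associated chains (FACIT), 6 chains of type VI, 3 short chains of types VIII and X, 4 transmembrane chains, both multiplexins (types XV and XVIII), and the chains of types VII and XXVIII. Expression reached a level that could be tested in 37 of the 43. The members were found by symbol alone, and Emid2, a collagen gene that now carries the symbol Col26a1, is outside the set because the annotation used here names it otherwise.

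Fibrillar collagens assemble into the cross-striated fibrils that give connective tissue its tensile strength. Type IV collagen forms a sheet-like network with laminin, nidogen and perlecan under epithelia and around vessels. In the liver the fibrillar chains come mainly from stellate cells, portal fibroblasts and the capsule, and type XVIII collagen is a basement membrane collagen that hepatocytes also make.

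Polyadenylated RNA of the right liver lobe was sequenced in 20 male fetuses of the outbred CD-1 IGS mouse strain at embryonic day 18.5. The control group held 10 fetuses of control dams and the other group held 10 fetuses of dams under maternal nutrient restriction, written MNR. Each group held 5 litters, lettered A to E, with 2 male littermates per litter, and equal letters in the groups do not mean a shared dam. The labels name no genetic alteration and give no batch or sequencing date. Counts of littermates were summed, because the treatment was given to the dam, and the 5 control litters were compared with the 5 MNR litters with edgeR's quasi-likelihood test. Levels are CPM, counts scaled by the TMM-corrected library size, and members are ranked by level per kilobase of the gene's merged exons. Where different genes are set side by side in plain CPM, as in ratios of partner chains, the values also reflect gene length. A log2 fold change is the ratio of MNR to control on the log2 scale and is given with its SE, the standard error. Adjustment of p-values follows Benjamini and Hochberg over all 17573 tested genes.

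The repeat that defines the family was counted in the annotated coding sequences, because it separates the classes compared below. A collagen helix requires glycine at the start of each triplet of residues, written Gly-X-Y, and a run here is at least 5 such triplets in a row. In the 11 fibrillar genes the longest run had a median of 338 triplets, with a range from 216 to 344, and each gene held 2 or 3 runs. In the 6 type IV genes the longest run had a median of 43.5 triplets, with a range from 39 to 66, and each gene held 19 to 24 runs. Col18a1, the multiplexin that dominated the liver levels, had 13 runs and a longest run of 30 triplets. The coding stretches below show 30 codons each of an unbroken fibrillar run, of the longest Col18a1 run and of an interruption in Col4a1, 5′ to 3′, with the glycine codons of runs in capitals and all other codons in lower case.
Col1a1: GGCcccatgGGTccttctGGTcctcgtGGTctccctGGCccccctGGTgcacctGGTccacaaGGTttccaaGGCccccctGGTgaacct
Col18a1: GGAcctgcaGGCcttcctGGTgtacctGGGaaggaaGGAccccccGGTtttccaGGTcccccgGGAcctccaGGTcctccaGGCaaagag
Col4a1: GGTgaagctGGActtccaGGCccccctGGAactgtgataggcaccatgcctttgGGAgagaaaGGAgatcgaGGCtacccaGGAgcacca
In NCBIM37 (mm9) the Col1a1 stretch is codons 168 to 197 of Col1a1-001, in exons 6 to 8 on the plus strand of chromosome 11 (94800765 to 94801253, introns included). The Col18a1 stretch is codons 953 to 982 of Col18a1-201, in exons 12 and 13 on the minus strand of chromosome 10 (76539940 to 76540491). The Col4a1 stretch is codons 323 to 352 of Col4a1-001, in exons 18 and 19 on the minus strand of chromosome 8 (11236454 to 11237877). All 10 glycine codons fall in register in Col1a1 and Col18a1, while the Col4a1 stretch has 8, with 6 residues outside the repeat between its 2 runs.

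**Figure D1:**
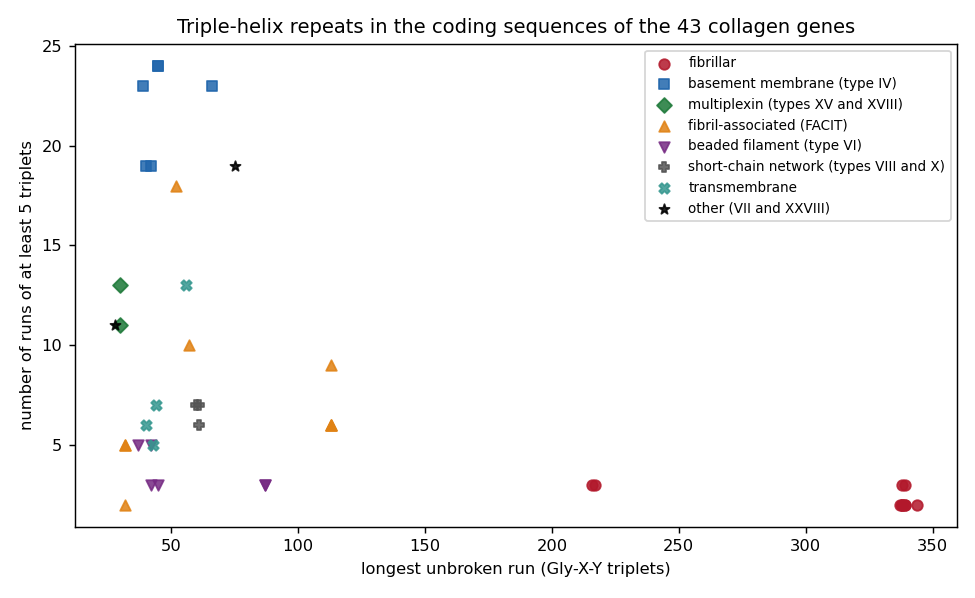
Number of Gly-X-Y runs of at least 5 triplets (vertical axis) against the longest run in triplets (horizontal axis) in the coding sequence of each of the 43 collagen genes, with 1 symbol per class. The fibrillar genes lie at 216 to 344 triplets and 2 or 3 runs, the type IV genes at 39 to 66 triplets and 19 to 24 runs.

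Col18a1 was the most abundant collagen transcript of these livers. Its mean level over the 10 litters was 182.7 CPM per kilobase, which placed it at rank 228 of the tested genes and made up 52.0% of the summed level of all members. Col4a1 followed at 37.9, Col3a1 at 21.5, Col14a1 at 18.8, Col1a1 at 18.3 and Col4a2 at 17.7 CPM per kilobase. Col5a1, Col6a1, Col1a2 and Col5a2 made up the rest of the first 10, at 10.6, 8.95, 8.55 and 4.64 CPM per kilobase. The other 33 members lay below these, and 14 members in all had a mean of at least 10 CPM.

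The spacing between neighbours in this order was compared with the spread over litters. The lowest Col18a1 litter, at 141.1 CPM per kilobase, lay above the highest Col4a1 litter, at 48.5. Col4a1 ranged from 32.4 to 48.5 and did not overlap Col3a1, which ranged from 15.3 to 25.8 CPM per kilobase. The litter ranges of Col3a1, Col14a1, Col1a1 and Col4a2 overlapped each other, so their order is not fixed by these litters. These levels rest on transcript counts summed per gene, and the sources used here do not say whether a read shared by several transcripts of a gene was counted in each of them. By the largest transcript alone Col18a1 still ranked first, at 68.0 CPM per kilobase, 34.3% of the members' sum on that scale, followed by Col4a1 at 37.5, Col3a1 at 16.7 and Col4a2 at 16.3. Col14a1 moved from rank 4 to rank 8 on that scale, at 6.55 CPM per kilobase, and Col6a1 from rank 8 to rank 11.

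Several collagens of cartilage had few counts. Col2a1, the main fibrillar chain of cartilage, had 77 counts in 18 of the 20 fetuses, Col9a1 had 29 counts and Col10a1, the collagen of hypertrophic cartilage, had 10. Col6a4, Col19a1 and Col28a1 had 22, 4 and 96 counts over all fetuses. These 6 genes did not pass the filter on low counts and were not tested. Other chains known from cartilage were detected in all 20 fetuses and tested, among them Col27a1 at a mean of 37.9 CPM, Col11a1 at 7.93 CPM, and Col9a2 and Col9a3 with 500 and 416 counts.

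**Figure D2:**
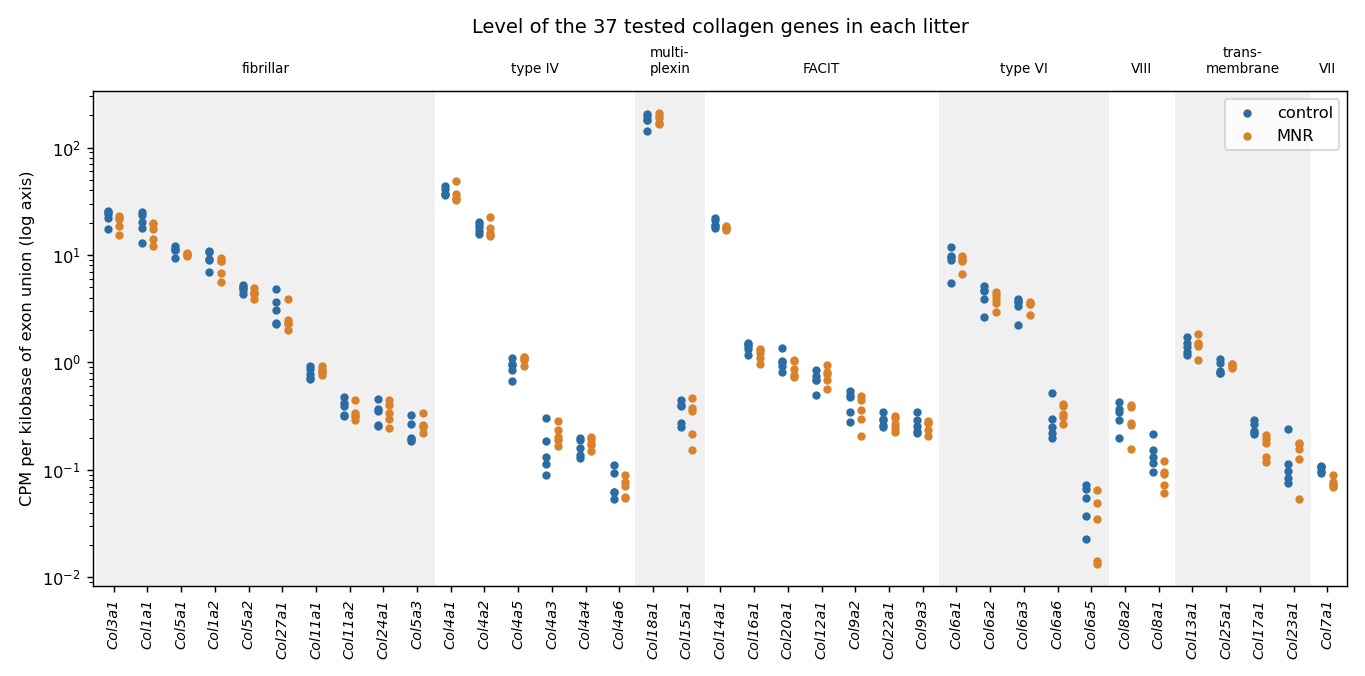
Level of the 37 tested collagen genes in CPM per kilobase on a log axis, ordered by class and then by mean level, with 1 point per litter for the 5 control and the 5 MNR litters. Col18a1 lies between 141.1 and 207.5 CPM per kilobase in every litter, and the points of the 2 groups overlap for all genes except Col7a1 and Col17a1.

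No collagen gene passed an adjusted p of 0.05 between MNR and control litters, in edgeR's quasi-likelihood test. Of the 37 tested members 0 were called, against 0.666% of all tested genes in either direction. At an unadjusted p under 0.05, 5 members were lower in MNR (Col7a1, Col8a1, Col14a1, Col16a1 and Col17a1) and 0 were higher, while the shares over all tested genes were 9.69% lower and 9.95% higher. The 5 members are 13.5% of the 37. All MNR litters lay below all control litters for 2 members, Col7a1 and Col17a1, and 0 members showed the opposite, against 2.23% of all tested genes with MNR lower throughout and 2.28% with MNR higher. Of the 37 log2 fold changes 24 were negative, with a median of -0.11, beside a median of -0.00 over all tested genes.

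The fibrillar chains had a median log2 fold change of -0.16, with 7 of 10 tested members negative and 0 past an unadjusted p of 0.05. Col3a1, the chain of the homotrimeric type III fibril, stood at 147, 204, 186, 216 and 209 CPM in control litters A to E and at 155, 184, 128, 191 and 181 CPM in MNR litters A to E. Control litter A and MNR litters A and C were the low ones, and the groups overlapped over most of their range. The log2 fold change of Col3a1 was -0.20 (SE 0.13, adjusted p 0.418, edgeR).

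Type I collagen, the main fibril of bone, tendon and scar, is made of alpha-1 chains from Col1a1 and alpha-2 chains from Col1a2. Col1a1 stood at 85.3, 133, 117, 154 and 164 CPM in control litters A to E and at 91.9, 130.1, 80.2, 128 and 116 CPM in MNR litters A to E. Col1a2 stood at 83.6, 111, 109, 129 and 131 CPM in the control litters and at 82.6, 106, 67.4, 113 and 106 CPM in the MNR litters. For both chains control litter A and MNR litters A and C were again the lowest, control litters D and E the highest, and the groups overlapped. The log2 fold changes were -0.26 (SE 0.18, adjusted p 0.457, edgeR) for Col1a1 and -0.25 (SE 0.15, adjusted p 0.399, edgeR) for Col1a2.

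Type V collagen nucleates type I fibrils and limits their width. Its chain gene Col5a1 stood at 79.5, 102, 97.0, 93.4 and 94.5 CPM in control litters A to E and at 86.5, 88.4, 85.6, 83.3 and 87.1 CPM in MNR litters A to E. Col5a2 stood at 41.8, 48.5, 47.5, 45.0 and 50.3 CPM in the control litters and at 41.6, 42.2, 37.4, 43.7 and 47.1 CPM in the MNR litters. Every control litter but A was above every MNR litter for Col5a1, and the Col5a2 litters overlapped more widely. The log2 fold changes were -0.11 (SE 0.06, adjusted p 0.362, edgeR) for Col5a1 and -0.14 (SE 0.07, adjusted p 0.305, edgeR) for Col5a2.

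Col27a1, a fibrillar chain best known from cartilage, stood at 47.3, 40.2, 62.7, 30.3 and 29.5 CPM in control litters A to E and at 30.6, 32.4, 50.2, 26.2 and 29.9 CPM in MNR litters A to E. Litter C was the highest of each group, and the groups overlapped. The log2 fold change was -0.31 (SE 0.22, adjusted p 0.473, edgeR). The remaining fibrillar chains Col11a1, Col11a2, Col24a1 and Col5a3 had means between 1.69 and 7.93 CPM and log2 fold changes from -0.17 to 0.18.

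The type IV chains had a median log2 fold change of 0.04, with 3 of 6 members positive and 0 past an unadjusted p of 0.05. That median became 0.23 with only fetus 1 of each litter and -0.14 with only fetus 2. The fibrillar median minus the type IV median was -0.20. Col4a1, which with Col4a2 forms the basement membrane network found in nearly all tissues, stood at 249.7, 278, 300.1, 247 and 252 CPM in control litters A to E and at 224, 232, 253, 221 and 330.5 CPM in MNR litters A to E. Col4a2 stood at 120.4, 128, 134, 104 and 109.9 CPM in the control litters and at 103, 105, 119, 100.2 and 149 CPM in the MNR litters. MNR litter E was the highest of all 10 litters for both chains, while MNR litters A, B and D lay below every control litter for Col4a1. The log2 fold changes were -0.07 (SE 0.11, adjusted p 0.763, edgeR) for Col4a1 and -0.05 (SE 0.11, adjusted p 0.846, edgeR) for Col4a2.

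The other type IV chains form the specialised networks of kidney, lung and smooth muscle basement membranes and were scarce here. Col4a5 stood at 5.77, 7.44, 6.40, 4.53 and 6.43 CPM in control litters A to E and at 7.15, 7.63, 7.21, 6.26 and 7.62 CPM in MNR litters A to E. Control litter D was the lowest and the groups overlapped, with a log2 fold change of 0.23 (SE 0.12, adjusted p 0.301, edgeR). Col4a3 stood at 1.12, 3.03, 1.32, 0.894 and 1.84 CPM in the control litters and at 2.04, 2.81, 2.34, 1.65 and 1.90 CPM in the MNR litters. The control litters of Col4a3 spread wider than the MNR litters and enclosed them, and the log2 fold change was 0.40 (SE 0.29, adjusted p 0.486, edgeR). Col4a4 stood at 1.34, 1.15, 1.65, 1.07 and 1.57 CPM in the control litters and at 1.46, 1.24, 1.41, 1.61 and 1.69 CPM in the MNR litters. Col4a6 stood at 0.431, 0.752, 0.494, 0.496 and 0.880 CPM in the control litters and at 0.447, 0.622, 0.441, 0.711 and 0.572 CPM in the MNR litters. The groups overlapped for both, with log2 fold changes of 0.13 (SE 0.15, adjusted p 0.667, edgeR) for Col4a4 and -0.11 (SE 0.23, adjusted p 0.827, edgeR) for Col4a6.

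The balance of the 2 classes was taken per litter as the summed CPM per kilobase of fibrillar chains over that of type IV chains. It was 1.01, 1.23, 1.10, 1.51 and 1.48 in control litters A to E and 1.16, 1.35, 0.933, 1.43 and 0.924 in MNR litters A to E. The lowest values were in MNR litters C and E and the highest in control litters D and E, with overlap over most of the range. The means were 1.26 ± 0.222 (SD, n = 5) and 1.16 ± 0.231 (SD, n = 5), a log2 difference of -0.13 that is smaller than the spread between litters of a group (SD 0.27 on the log2 scale). As a score over the members it was given no test.

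The groups differed in Col18a1 by less than the error of the difference. It stood at 1259.8, 1433, 1367, 991 and 1269.7 CPM in control litters A to E and at 1316, 1169, 1457, 1183.5 and 1379.7 CPM in MNR litters A to E. Control litter D was the lowest and MNR litter C the highest, and the log2 fold change was 0.04 (SE 0.10, adjusted p 0.860, edgeR). The gene has a distal start, used by transcript Col18a1-001 at position 76629293 of chromosome 10 in mm9 (minus strand), and an inner start region used by the longer Col18a1-201 at 76576421. Col18a1-201 held 33.7% ± 0.219 (SD, n = 5) of the gene's counts in control litters and 33.5% ± 0.164 in MNR litters, and Col18a1-001 held 30.5% ± 0.306 and 30.1% ± 0.235. The sources used here do not say whether a read in an exon common to these transcripts was counted in each. The shares therefore do not measure the use of either start, nor show that it was equal in the groups. Col15a1, the other multiplexin, was scarce at 2.11 CPM, with a log2 fold change of -0.17.

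The FACIT chains bind along fibrils without forming them, and 6 of 7 tested members were on the negative side, the median log2 fold change being -0.15. Col14a1, a FACIT of fibril-rich connective tissue, stood at 129.5, 147, 155, 126 and 134 CPM in control litters A to E and at 125, 126, 119, 129.7 and 124 CPM in MNR litters A to E. Control litters B, C and E were above every MNR litter, and control litters A and D lay within the MNR range. The log2 fold change of Col14a1 was -0.15 (SE 0.07, unadjusted p 0.0407, adjusted p 0.234, edgeR). Col16a1, a further FACIT, stood at 7.99, 9.51, 9.08, 9.93 and 10.2 CPM in the control litters and at 7.40, 9.03, 6.53, 8.33 and 8.71 CPM in the MNR litters. Control litter A alone fell within the MNR range, and the log2 fold change of Col16a1 was -0.22 (SE 0.10, adjusted p 0.242, edgeR). Col12a1, Col20a1, Col22a1, Col9a2 and Col9a3 ranged from -0.25 to 0.12 on the log2 scale, at means from 1.01 to 11.0 CPM.

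Type VI collagen forms beaded microfilaments between fibrils and cell surfaces. Col6a1 stood at 23.9, 52.6, 39.8, 42.2 and 42.9 CPM in control litters A to E and at 38.8, 41.5, 29.3, 39.1 and 43.0 CPM in MNR litters A to E. Control litter A was the lowest and control litter B the highest of all 10, and the log2 fold change was -0.07 (SE 0.17, adjusted p 0.855, edgeR). Col6a2 and Col6a3 had log2 fold changes of -0.14 (SE 0.16) and 0.01 (SE 0.13). Col6a6 and Col6a5 were scarce, at 2.39 and 0.400 CPM.

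Col17a1, a transmembrane collagen of the hemidesmosome, stood at 1.53, 1.69, 1.32, 1.25 and 1.31 CPM in control litters A to E and at 1.02, 0.757, 1.12, 0.688 and 1.22 CPM in MNR litters A to E. The lowest control litter lay just above the highest MNR litter, and the log2 fold change was -0.56 (SE 0.18, unadjusted p 0.00806, adjusted p 0.119, edgeR). Col17a1 had 492 counts over all 20 fetuses.

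Col7a1 and Col8a1 were chosen after their values were seen, since their means lay under the 1 CPM set for naming genes by p. Col7a1, the chain of the anchoring fibrils of skin, stood at 0.957, 1.07, 1.08, 0.993 and 1.12 CPM in control litters A to E and at 0.794, 0.919, 0.728, 0.711 and 0.754 CPM in MNR litters A to E. All control litters were above all MNR litters, on 377 counts in total, and the log2 fold change was -0.42 (SE 0.13, unadjusted p 0.00581, adjusted p 0.107, edgeR). The microRNA gene Mir711 shares 36 exon bases with Col7a1 on the same strand. Col8a1, a short chain of vascular matrix, had 243 counts in total and a log2 fold change of -0.68 (SE 0.25, adjusted p 0.169, edgeR), with overlapping groups. The transmembrane chains Col13a1, Col23a1 and Col25a1 had log2 fold changes from 0.05 to 0.18, and Col8a2 had one of -0.14.

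**Figure D3:**
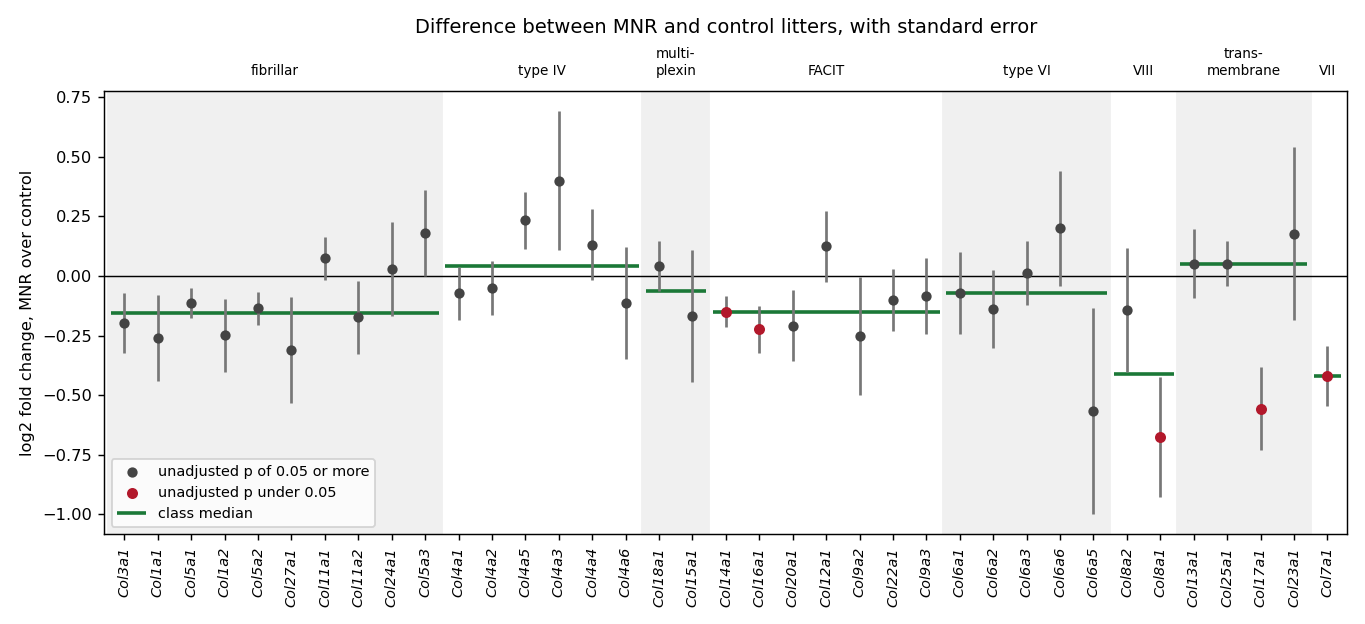
Log2 fold change of MNR over control litters with its standard error for the 37 tested collagen genes, by class, with green bars at the class medians and red points at an unadjusted p under 0.05. The fibrillar median is -0.16 and the type IV median 0.04, and the 5 red points all lie below 0.

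Chains that assemble into the same protein were compared over the 10 litters, for 13 pairs chosen by protein or class. Col1a1 and Col1a2 lie on chromosomes 11 and 6 and tracked each other with a Pearson r of 0.97 (Spearman rho 0.89, adjusted permutation p 0.000156 and 0.00251). Without the 2 litters farthest from the median of Col1a1 the r was 0.96, and it was 0.99 within the control and 0.97 within the MNR litters. Col3a1, which is not part of type I collagen, tracked Col1a1 as closely, with an r of 0.97 (rho 0.95, adjusted permutation p 0.000130 and 0.000433, r of 0.95 without 2 litters).

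Col4a1 and Col4a2 are transcribed in opposite directions from starts 21 bases apart on chromosome 8, so that their first exons share 22 bases. Their r was 0.96 (rho 0.95, adjusted permutation p 0.000130 and 0.000433), and 0.89 without the 2 litters farthest from the Col4a1 median. Col6a1 and Col6a2, neighbours on chromosome 10, had an r of 0.96 (rho 0.93, adjusted permutation p 0.000130 and 0.00136) and an r of 0.84 without 2 litters. Col6a3, which supplies the remaining chain of the type VI heterotrimer, followed Col6a1 with an r of 0.76 (rho 0.90, adjusted permutation p 0.0701 and 0.00213), 0.98 within control and 0.02 within MNR litters. Col5a1 and Col5a2 had an r of 0.68 (rho 0.78, adjusted permutation p 0.0597 and 0.0195), and of 0.57 without 2 litters. Within groups their r was 0.84 in control and 0.10 in MNR litters.

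The scarce type IV chains that start near each other had low correlations over the litters. Col4a3 and Col4a4 start 72 bases apart on opposite strands of chromosome 1 and had an r of 0.01 (rho -0.13, adjusted permutation p 0.961 and 0.803), which became -0.91 without the 2 litters farthest from the Col4a3 median. Col4a5 and Col4a6 start 1309 bases apart on the X chromosome and had an r of 0.20 (rho 0.27, adjusted permutation p 0.723 and 0.527), which became -0.26. Col4a4 and Col4a6 had 586 and 239 counts over all fetuses, and 43 to 70 and 18 to 33 counts per litter. Counting noise at such levels can hide a correlation, so these pairs do not show whether a shared start region goes with one.

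Col1a1 was also set against the abundant basement membrane chains Col4a1 and Col18a1 over the litters. Col1a1 and Col4a1 had an r of 0.04 (rho -0.09, adjusted permutation p 0.961 and 0.821), and -0.03 without 2 litters. Col1a1 and Col18a1 had an r of -0.50 (rho -0.44, adjusted permutation p 0.181 and 0.269), and -0.47 without 2 litters. Col4a1 and Col18a1 had an r of 0.48 (rho 0.70, adjusted permutation p 0.181 and 0.0491), and 0.40 without 2 litters. For Col1a2 and Col3a1 the r was 0.98 (rho 0.95, adjusted permutation p 0.000130 and 0.000433), and 0.96 without 2 litters. For Col1a1 and Col14a1 it was 0.34 (rho 0.52, adjusted permutation p 0.452 and 0.194), and 0.09 without 2 litters. The values share the scaled library of each litter, and 10 litters leave wide limits on such a correlation.

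**Figure D4:**
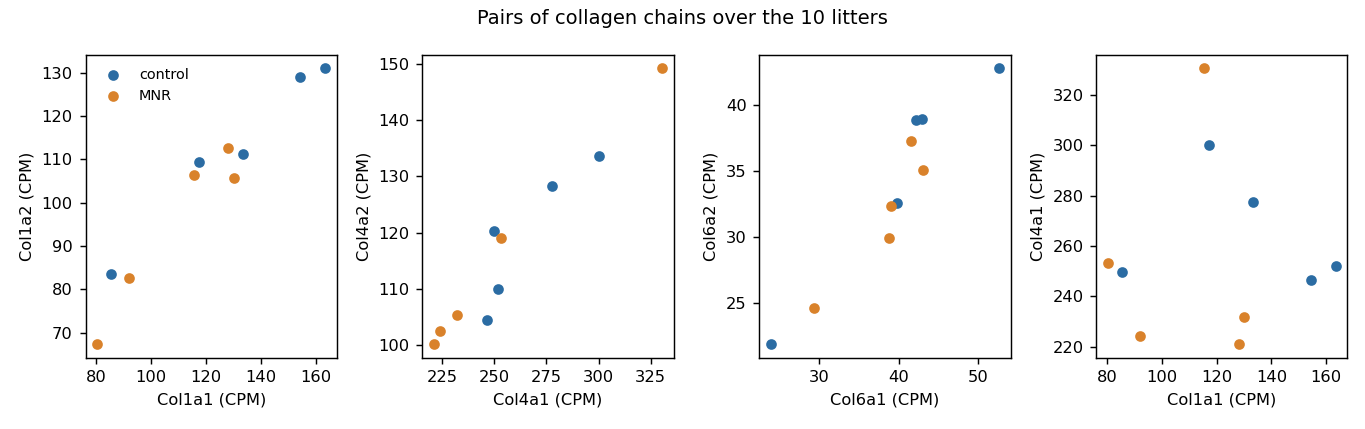
CPM of 4 pairs of collagen chains in the 5 control and 5 MNR litters, 1 point per litter. The points of Col1a1 and Col1a2, of Col4a1 and Col4a2 and of Col6a1 and Col6a2 lie along lines with r of 0.96 or 0.97, and those of Col1a1 and Col4a1 do not (r of 0.04).

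The ratio of partner chains was taken in each litter, and for the pairs Col1a1 and Col1a2, Col4a1 and Col4a2, and Col6a1 and Col6a2 it varied less over the litters than the level of either chain. Col1a1 over Col1a2 was 1.15 ± 0.097 (SD, n = 5 litters) in control and 1.15 ± 0.059 in MNR litters, in CPM. Col4a1 over Col4a2 was 2.23 ± 0.112 in control and 2.19 ± 0.035 in MNR litters. Col5a1 over Col5a2 was 2.00 ± 0.103 and 2.04 ± 0.174, and Col6a1 over Col6a2 was 1.15 ± 0.073 and 1.21 ± 0.066. The scarce type IV pairs had wider ratios, from 0.800 to 2.63 over the litters for Col4a3 over Col4a4 and from 7.30 to 16.4 for Col4a5 over Col4a6. By its largest transcript per kilobase, Col1a1 was at 1.49 ± 0.114 times Col1a2 over the 10 litters, and by merged exons at 2.13 ± 0.140 times.

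Male littermates differed widely in their type I and type III collagen transcripts. The median difference between littermates was 0.61 on the log2 scale for Col1a1, 0.42 for Col1a2 and 0.41 for Col3a1, while it was 0.13 for Col4a1, 0.13 for Col18a1 and 0.07 for Col14a1. Among the 9368 tested genes that averaged 10 CPM or more this difference had a median of 0.11, and 0.480% of them exceeded Col1a1. The extreme litter was MNR B, with 208 CPM of Col1a1 in fetus 1 and 66.9 CPM in fetus 2. Fetus 1 of that litter also carried exocrine pancreas transcripts, at 158 CPM, as described below. The largest littermate differences of Col3a1 and Col6a1 were in control litter B, whose fetus 1 carried 368 CPM of them. The littermate differences were not recomputed without such fetuses.

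The direction of the difference between littermates was compared with that of Col1a1. In 10 of 10 litters the fetus with more Col1a1 also had more Col1a2, Col3a1 and Col5a2, in 9 of 10 it had more Col6a1 and Col6a2, in 8 of 10 more Col5a1 and in 7 of 10 more Col6a3. For Col4a1 and Col18a1 this held in 3 of 10 litters. For Col27a1 it held in 1 of 10, so the fetus with more Col1a1 was nearly always the one with less Col27a1. These counts were given no test.

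The summed cell type markers were compared with Col1a1 in the same way. The summed portal fibroblast markers (6 genes, Thy1 and Eln among them) and the summed mesothelial markers (5 genes) were higher in the fetus with more Col1a1 in 10 of 10 litters, the stellate cell markers (10 genes) in 7 and the hepatocyte markers in 4. The exocrine pancreas markers were higher in that fetus in 8 of 10 litters, and the smooth muscle and endothelial markers each in 6. Of the pancreas markers Amy2a5 had a median of 12.4 CPM over the fetuses, and every other one a median of at most 0.320 CPM. The direction of the pancreas sum can therefore rest on Amy2a5 alone in most litters. Some differences in the portal fibroblast sum were near ties. Fetuses 1 and 2 stood at 68.9 and 69.3 CPM in MNR litter C and at 65.2 and 63.7 CPM in control litter A. Such ties have no sure direction, since the marker sums use unscaled totals and Col1a1 is TMM-scaled. Eln, itself a matrix gene, had a median of 43.7 CPM over the fetuses, beside 1.13 CPM for Thy1. Portal fibroblast markers ranged from 63.7 to 142.9 CPM in control and from 53.2 to 116.9 CPM in MNR fetuses. Their part in the collagen differences was not tested. In bulk tissue, fewer cells of a type and less RNA per cell cannot be told apart.

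Transcripts of the exocrine pancreas, summed over 8 matched markers, stood apart in 3 fetuses, at 368 CPM in fetus 1 of control litter B, 158 CPM in fetus 1 of MNR litter B and 114 CPM in fetus 1 of MNR litter E. The other fetuses lay between 4.13 and 40.2 CPM. Fetus 1 of control litter B was the highest of all 20 fetuses for 18 of the 37 tested collagens, among them Col1a2, Col3a1 and Col6a1, and also had the highest portal fibroblast markers. Without these 3 fetuses 0 collagen genes were called, 7 were lower at an unadjusted p under 0.05, and the median log2 fold change of the members was -0.13.

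**Figure D5:**
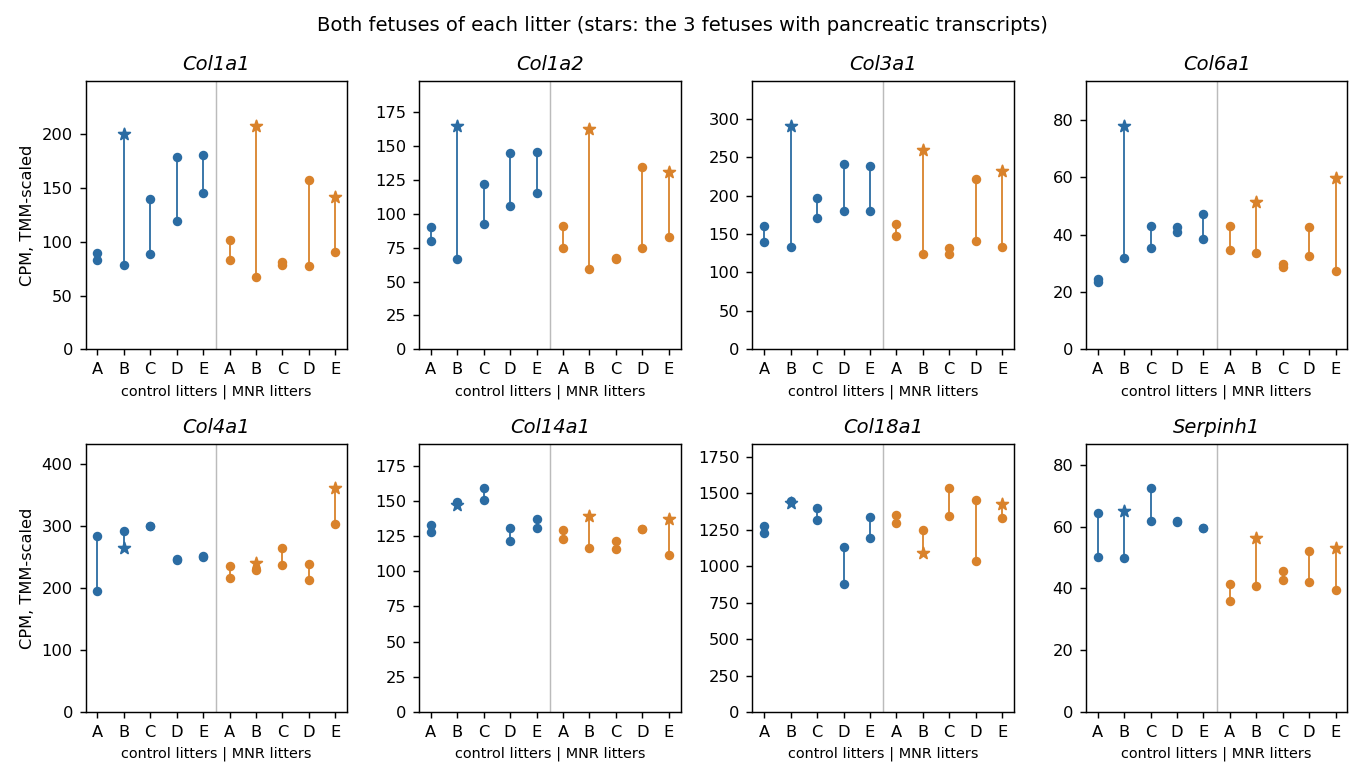
CPM of both fetuses of each litter, joined by a line, for 7 collagen genes and Serpinh1, with control litters in blue and MNR litters in orange, and stars for the 3 fetuses with pancreatic transcripts. The lines are long for Col1a1, Col1a2, Col3a1 and Col6a1, for example 208 and 66.9 CPM of Col1a1 in MNR litter B, and short for Col14a1.

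Promoter sequence is shown for 3 fibrillar genes that differed in how they varied between littermates, Col3a1 with Col1a1, Col27a1 against it, and Col5a1 with a small spread. The windows are the 250 bases before the start in RefSeq (GRCm38.p6), all on the plus strand, at chr1:45311288-45311537 for Col3a1, chr2:27886175-27886424 for Col5a1 and chr4:63215162-63215411 for Col27a1. Capitals mark matches, on either strand, to the CCAAT box, to the GC box spelled GGGCGG and to the TATA box spelled TATAAA.
Col3a1: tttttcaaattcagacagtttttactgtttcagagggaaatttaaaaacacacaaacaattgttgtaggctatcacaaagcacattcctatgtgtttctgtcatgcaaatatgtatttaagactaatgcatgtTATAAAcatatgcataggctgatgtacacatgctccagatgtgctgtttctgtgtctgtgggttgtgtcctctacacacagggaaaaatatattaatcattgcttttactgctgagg
Col5a1: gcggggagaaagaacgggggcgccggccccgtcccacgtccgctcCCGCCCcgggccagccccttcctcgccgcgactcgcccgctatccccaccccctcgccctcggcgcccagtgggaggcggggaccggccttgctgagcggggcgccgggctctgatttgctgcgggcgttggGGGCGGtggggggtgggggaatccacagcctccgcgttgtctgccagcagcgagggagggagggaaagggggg
Col27a1: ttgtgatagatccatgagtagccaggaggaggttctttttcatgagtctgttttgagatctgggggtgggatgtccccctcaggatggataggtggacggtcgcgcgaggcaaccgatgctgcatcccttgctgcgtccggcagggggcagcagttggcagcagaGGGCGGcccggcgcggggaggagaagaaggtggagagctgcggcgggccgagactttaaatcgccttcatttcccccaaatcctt
The Col3a1 window holds TATAAA 117 bases before the start and neither of the other motifs, the Col27a1 window holds GGGCGG 85 bases before the start, and the Col5a1 window holds GGGCGG once on each strand. The RefSeq table had windows for 35 of the 43 members. Of these 35, 21 held GGGCGG, 13 held CCAAT and 5 held TATAAA, which is 60.0%, 37.1% and 14.3%, beside 32.7%, 33.8% and 12.4% of all 32851 windows in the table. The units differ, since a member counts with a match in any of its windows (38 in all) and the table's share is per window. Some member windows lie in annotated exons, those of Col4a1 and Col4a2 with all 250 bases. The 3 windows shown were taken from those outside annotated exons. A match is a description of the letters and not a binding site. Whether a motif goes with a littermate pattern was not tested.

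Collagen chains are folded in the endoplasmic reticulum by a dedicated set of proteins before they are secreted. Serpinh1, the collagen-specific chaperone HSP47 on chromosome 7 (106493885 to 106501740 in mm9, minus strand), fell in MNR livers. It was the 1 gene past the threshold among 85 tested genes on the 7 lists of collagen-related genes. Over all tested genes 0.666% passed, so 1 call among 85 is no result about the lists. Serpinh1 stood at 58.9, 56.4, 66.8, 61.8 and 59.8 CPM in control litters A to E and at 38.3, 47.5, 44.5, 48.5 and 46.1 CPM in MNR litters A to E. All control litters were above all MNR litters. The means were 60.8 ± 3.89 (SD, n = 5) and 45.0 ± 4.01 CPM (SD, n = 5), with a log2 fold change of -0.43 (SE 0.07, adjusted p 0.0286, edgeR).

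The Serpinh1 call rests on the full set of litters. Leaving out 1 litter kept the log2 fold change between -0.46 and -0.38, but the adjusted p was under 0.05 only without control litter B (0.0141) or MNR litter D (0.0141). It rose to between 0.0534 and 0.0834 without control litter A, C, D or E or without MNR litter A, B, C or E. With only fetus 1 of each litter the log2 fold change was -0.32 (adjusted p 0.353), and with only fetus 2 it was -0.57 (adjusted p 0.00648). Among single fetuses the groups overlapped, with MNR B fetus 1 at 56.2 CPM above control B fetus 2 at 49.7 CPM.

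The other proteins of collagen folding and modification did not pass the test, 18 of 19 tested genes. Fkbp14, a prolyl isomerase of the endoplasmic reticulum, had a log2 fold change of -0.47 (SE 0.12, adjusted p 0.0721, edgeR), from 5.78 ± 0.994 to 4.18 ± 0.132 CPM (SD, n = 5 litters). Tmem38b, a cation channel of the endoplasmic reticulum, and P4ha1, a catalytic subunit of prolyl 4-hydroxylase, had positive log2 fold changes of 0.24 and 0.52 (adjusted p 0.173 and 0.205). The median of the list was -0.09, with 11 of 19 negative.

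Of the 12 genes of procollagen processing and crosslinking 0 passed. Both procollagen C-proteinase enhancers were lower in MNR without passing. Pcolce stood at 14.0, 14.7, 15.4, 14.3 and 16.2 CPM in control litters A to E and at 10.9, 12.8, 13.1, 13.5 and 11.6 CPM in MNR litters A to E, without overlap, with a log2 fold change of -0.27 (SE 0.07, adjusted p 0.0810, edgeR). Pcolce2 had a log2 fold change of -0.59 (SE 0.14, adjusted p 0.0682, edgeR), from 23.6 ± 4.32 to 15.6 ± 2.91 CPM. Adamts3, a procollagen N-proteinase, had one of 0.31 (adjusted p 0.250), and the list's median was -0.09.

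Among 9 fibril-binding proteins 0 passed, 7 were negative and the median was -0.14. Sparc, a collagen-binding matrix glycoprotein, stood at 209, 251, 244, 206 and 232 CPM in control litters A to E and at 182, 192, 190.1, 211 and 207 CPM in MNR litters A to E. MNR litters A, B and C lay below every control litter, and the log2 fold change was -0.22 (SE 0.07, adjusted p 0.132, edgeR). Lum and Bgn, proteoglycans that coat fibrils, had log2 fold changes of -0.19 and -0.14.

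Of 14 tested basement membrane partners 0 passed, with a median of -0.02. Lama5, a laminin chain, had a log2 fold change of 0.27 (SE 0.08, adjusted p 0.0965, edgeR), Nid1, which links laminin to type IV collagen, one of -0.16 (adjusted p 0.275), and Lamb3 one of 0.34 (adjusted p 0.310).

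The 11 genes of collagen breakdown and its inhibitors held 0 that passed and had a median of -0.06. Timp3, a metalloproteinase inhibitor bound to matrix, stood at 26.4, 28.8, 26.2, 21.4 and 20.8 CPM in control litters A to E and at 36.6, 33.9, 35.3, 28.6 and 37.0 CPM in MNR litters A to E. Only MNR litter D fell within the control range, and the log2 fold change was 0.47 (SE 0.10, adjusted p 0.0565, edgeR). Mmp19 and Mmp9 had log2 fold changes of -0.24 and 0.27 (adjusted p 0.116 and 0.156).

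Collagen receptors did not pass either, 0 of 9, with a median of -0.03. Itga2, the alpha chain of a collagen-binding integrin found on platelets, stood at 3.21, 6.90, 4.16, 3.04 and 4.53 CPM in control litters A to E and at 7.79, 9.19, 8.07, 6.03 and 11.8 CPM in MNR litters A to E. Control litter B alone overlapped the MNR range, and the log2 fold change was 0.98 (SE 0.23, adjusted p 0.0642, edgeR). Gp6, the platelet collagen receptor, had one of 0.32 (adjusted p 0.236). All 5 megakaryocyte markers had positive log2 fold changes, with a median of 0.25. Of these, 4 were higher at an unadjusted p under 0.05 (edgeR), beside 9.95% of all tested genes, and 0 passed the adjusted threshold. The summed megakaryocyte markers ranged from 201 to 249.96 CPM in control and from 219.9 to 259 CPM in MNR litters, and their part in Itga2 and Gp6 was not tested. Itga11, the alpha chain of a fibroblast collagen receptor, had a log2 fold change of -0.91 (SE 0.23, adjusted p 0.0767, edgeR), from 0.893 ± 0.207 to 0.475 ± 0.139 CPM.

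Of 11 genes of TGF-beta signalling, the main inducer of fibrillar collagen genes, 0 passed, 8 were positive and the median was 0.06. Tgfb3 and Smad4 had log2 fold changes of 0.43 and 0.23, each with an adjusted p of 0.162.

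The cell types that make collagens were followed through their markers. All 10 stellate cell markers had negative log2 fold changes, with a median of -0.18, 3 at an unadjusted p under 0.05 (edgeR) and 0 past the adjusted threshold. Over all tested genes 8897 of 17573 log2 fold changes were negative, and 9.69% were lower at that unadjusted p. The summed stellate cell markers ranged from 347 to 426 CPM in control and from 328 to 384 CPM in MNR litters. Portal fibroblast markers were negative for 5 of 6 genes, with a median of -0.12 and a range of 62.7 to 107.9 CPM in control and 56.8 to 90.4 CPM in MNR litters. Smooth muscle markers went the other way, positive for 3 of 3 tested genes with a median of 0.03. Mesothelial markers were positive for 2 of 5 genes, with a median of -0.01. Of these 5, 1 was higher at an unadjusted p under 0.05 (edgeR), beside 9.95% of all tested genes. On both lists 0 passed the adjusted threshold. Endothelial markers had a median of -0.01 and overlapping ranges, and the cartilage list had 1 tested gene of 5. The part of these cell types in the levels of the fibrillar chains and Serpinh1 was not tested.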

How the data were processed

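The authors deposited whole-number counts per transcript, 1 table per fetus. The tools named in the submitters' processing notes are edgeR, DESeq2, Bowtie2 and FastQC, with genome build mm9. The sources used here do not give the counting tool, the use of strand or the treatment of shared reads, so values of overlapping genes are uncertain. Counts were summed to genes with GENCODE M1 (NCBIM37) and over littermates. Transcripts without a gene held 0.0788% to 0.154% of counts. Totals were 14925778 to 28016953 per fetus. Genes were filtered with filterByExpr (minimum count 10), TMM-scaled and tested with edgeR 4.0.16 (two-sided). The same test was also run on simulated counts, with means and dispersions taken from these litters. Marker sums of single fetuses use unscaled totals, and correlations use log2(CPM + 0.1) with 100000 permutations. No pair of fetuses of a group agreed within sampling noise.

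The members and gene lists were chosen with earlier results of these data known. Named genes are the 6 highest fibrillar and type IV members per kilobase, other members among the first 10, the 10 of smallest p with a mean of at least 1 CPM, and up to 3 genes of smallest p per pathway list, of which 1 is not reported here. Gly-X-Y runs come from GENCODE coding sequences in place of proteins, which the design had named. Alternatives were DESeq2, limma-voom, other scalings and filters, other units of replication, a replicate block and leaving out each litter. Nothing in the labels says whether dams shared a batch, and p-values set the group difference against the spread between these litters. A deposited gene table of the series was not used, because its values are not counts.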

Additional observations from a re-analysis of the deposited data

Results flagged for a closer look

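Of 76 groups of 5 litters checked, 3 held a litter far from the other 4, which is 3.95%, and chance alone gives about 1 in 20. Col6a3 was lowest in MNR litter A, at 32.7 CPM, while the other MNR litters lay between 41.8 and 44.0 CPM. Col23a1, a scarce transmembrane chain, was highest in control litter B, at 1.37 CPM beside 0.437 to 0.646 CPM in the other control litters. Col27a1 was highest in MNR litter C, at 50.2 CPM beside 26.2 to 32.4 CPM in the other MNR litters.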

How the results depend on the processing

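No collagen gene passed the adjusted threshold under any alternative except with the 20 fetuses as separate libraries, which ignores litters and called 1, Col7a1 (adjusted p 0.0411). The number of members lower at an unadjusted p under 0.05 (5) became 3 with a minimum count of 50, 2 with limma-voom, 2 with only fetus 1 of each litter and 11 with only fetus 2. It ranged from 3 to 11 without 1 litter, with 11 without control litter A and 3 without control B, C or E or MNR A or C. The number higher (0) became 1 with separate fetuses, limma-voom or only fetus 1, and ranged from 0 to 3 without 1 litter, with 3 when control B and 1 when MNR D was left out. The replicate block on litter letters gave 8 lower and 2 higher, 0 past the adjusted threshold. Same-letter litters correlated by -0.01 to 0.20 in their deviations, and 2 of 5 matched best with their own letter. The fibrillar median was negative under all 23 alternatives and became -0.049 with only fetus 1, and the type IV median became 0.23 with only fetus 1 and -0.14 with only fetus 2. The fibrillar median minus the type IV median stayed between -0.29 and -0.09 under all 24 alternatives. The count of all genes past the threshold ranged from 0 to 2301. Leaving out the 3 fetuses with pancreatic transcripts and the largest-transcript levels were chosen after seeing the data. Low counts limit Col7a1, Col8a1 and Col17a1, and shared reads limit levels between genes, those of Col18a1 and Col14a1 among them.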
